A study of Homo sapiens with 6 samples.

Results

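The mRNA of 10 keratin genes was examined in SW480 cells after knockdown of RBM39. The genes were KRT5, KRT6A, KRT6B, KRT7, KRT8, KRT17, KRT18, KRT19, KRT20 and KRT80, which are 10 of the 56303 genes in the count table and 10 of the 18243 genes tested. They were chosen by name from the change in their counts and RPKM between these same shRBM39 and shCtrl libraries, so their values are given as a description and no p-value is attached to them. Of these, KRT5, KRT6A and KRT17 were taken as the basal type and KRT8, KRT18, KRT19 and KRT20 as the simple type.

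SW480 is an established human colon adenocarcinoma cell line. With a stranded mRNA kit, RNA was sequenced from 3 libraries of cells carrying shCtrl, a nonsilencing hairpin (genotype label WT), and from 3 libraries of cells carrying shRBM39, a hairpin against RBM39. RBM39 is an RNA-binding splicing factor. Both hairpins were delivered by lentivirus and both lines were kept under puromycin as stable clonal lines, so a difference between clones and an effect of the hairpin cannot be told apart. The study's methods call the 3 libraries of a group replicate experiments. Neither they nor the labels say that these came from separate infections or clones, so the spread between libraries need not cover that between lines.

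Keratins are the intermediate filament proteins of epithelial cells. Each filament is built from obligate pairs of an acidic type I keratin and a basic type II keratin, whose genes lie in clusters on chromosome 17 and chromosome 12, with the type I gene KRT18 as the exception inside the type II cluster. KRT8 pairs with KRT18 in simple, single-layered epithelium such as that of the colon, together with the type I keratins KRT19 and KRT20, the last of which marks differentiated intestinal cells. KRT7 is the type II keratin of many ducts. KRT5 is the type II keratin of the dividing basal layer of stratified epithelium, where its partner is KRT14, whereas KRT6A, KRT6B and the type I keratins KRT16 and KRT17 are known from hair follicles, nail and wounded skin. KRT80 is a type II keratin associated with desmosomes and differentiation.

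Library totals ranged from 18042924 to 20428901 counts, with a count for 26514 to 27451 genes. RBM39 itself stood at 441, 448 and 435 CPM (counts scaled to the library size by TMM) in shCtrl and at 266, 276 and 292 CPM in shRBM39, a log2 fold change of -0.67 ± 0.04 (SE). Across all genes 59.1% were called by edgeR's quasi-likelihood test at an adjusted p under 0.05, 29.2% higher and 29.9% lower in shRBM39, and 63.3% had CPM that did not overlap between the groups. Of the keratins 9 were called, 8 higher and 1 lower, and 9 of the 10 had groups that did not overlap. At least 2-fold higher and called were 2.36% of all genes, and KRT5, KRT6A, KRT6B and KRT20 among the keratins. The choice of the genes had in part fixed these counts, and nothing is read from them. Of the 10, KRT6A, KRT6B and KRT20 entered the test only through their level in shRBM39, since 0, 1 and 1 of their shCtrl libraries reached the minimum of 0.503 CPM.

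The regions before 3 genes are printed because they belong to keratins that were low in shCtrl and moved upward, and because they share a short motif near the start. RefSeq promoter entries were at hand for KRT5, KRT8 and KRT20 among the listed genes, and for their neighbour KRT75. Each sequence gives the 250 bases before the start annotated in RefSeq on GRCh38.p14, 5′ to 3′ on the strand of the gene. The gene spans used for counting begin further upstream for KRT5, KRT75 and KRT8, at chromosome 12 positions 52520687, 52434525 and 52949954. They take in all of the KRT5 and KRT8 windows and part of that of KRT75, so the distances below hold for the RefSeq starts only. Capitals mark ATAAAA on the strand of the gene, a variant of the TATA box letters, which was searched for after the sequences had been seen. The regions are chr12:52520395-52520644 for KRT5, chr12:52434372-52434621 for KRT75 and chr17:40885243-40885492 for KRT20, all on the minus strand.
KRT5: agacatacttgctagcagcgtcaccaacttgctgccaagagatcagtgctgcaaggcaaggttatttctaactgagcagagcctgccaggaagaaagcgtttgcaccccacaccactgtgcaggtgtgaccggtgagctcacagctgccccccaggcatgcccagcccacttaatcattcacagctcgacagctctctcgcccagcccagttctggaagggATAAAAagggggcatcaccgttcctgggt
KRT75: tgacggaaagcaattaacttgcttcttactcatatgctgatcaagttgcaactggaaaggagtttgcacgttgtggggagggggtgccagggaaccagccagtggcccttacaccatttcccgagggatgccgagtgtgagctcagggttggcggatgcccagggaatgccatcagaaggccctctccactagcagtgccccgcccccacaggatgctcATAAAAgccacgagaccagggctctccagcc
KRT20: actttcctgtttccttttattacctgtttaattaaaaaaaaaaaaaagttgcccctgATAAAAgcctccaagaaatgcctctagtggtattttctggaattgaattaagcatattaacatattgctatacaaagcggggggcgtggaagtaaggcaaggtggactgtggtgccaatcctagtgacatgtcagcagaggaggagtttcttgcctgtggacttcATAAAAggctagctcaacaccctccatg
The motif began 29 bases before the start in KRT5, 31 bases before it in KRT75 and 28 bases before it in KRT20, where a further copy lay at 193 bases. These positions are on the strand of the gene. Near its 5′ end the KRT20 window also holds TTTTAT, which is ATAAAA on the other strand. On the strand of the gene and with its first base 20 to 40 bases before the start, ATAAAA was found in 618 of 35116 RefSeq promoters (1.76%), and on either strand at any place in the 250 bases it was found in 14.8%. The letters TATAAA (10.7% of promoters, both strands) and TGANTCA, the AP-1 motif (6.57%), were not in any of the 4 windows. CCAAT (32.0%) lay 79 bases before the start of KRT20 and GGGCGG (42.6%) 50 bases before that of KRT75. The KRT8 window held none of these letters. These matches describe sequence and carry no measurement of binding.

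KRT5, the basal layer keratin, moved furthest of the listed genes. Its counts were 43, 46 and 50 in shCtrl and 800, 699 and 741 in shRBM39. Per length, these counts were 0.513, 0.530 and 0.600 RPKM in shCtrl and 9.12, 9.03 and 8.53 RPKM in shRBM39. Every shRBM39 library lay far above every shCtrl library, and the spread within either group was small beside the gap. The mean rose from 0.547 ± 0.0459 to 8.89 ± 0.317 RPKM (SD, n = 3 each). On the TMM-scaled scale the log2 fold change was 4.14 ± 0.09 (SE), a 17.7-fold difference, which ranked 2 from the top among the 18243 tested genes. KRT5 shared few stretches with other genes: 4.52% of the 50-base windows of its canonical mRNA also occurred in another transcript, and 1.64% of the 100-base windows. The genes that shared them were KRT6C, KRT6B and KRT6A.

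KRT6A, a keratin of wounded skin and hair follicles, was close to the limit of detection in shCtrl and low in shRBM39. It had 9, 5 and 8 counts in shCtrl and 49, 51 and 54 in shRBM39, or 0.157, 0.0844 and 0.141 RPKM against 0.819, 0.965 and 0.911 RPKM. The groups did not overlap, and the log2 fold change was 2.92 ± 0.27 (SE), rank 7 from the top. KRT6B, its near copy, gave 8, 6 and 10 counts in shCtrl and 53, 48 and 43 in shRBM39, and its log2 fold change was 2.70 ± 0.27 (SE) and rank 11. The levels of KRT6B were 0.179, 0.130 and 0.226 RPKM in shCtrl and 1.14, 1.17 and 0.931 RPKM in shRBM39, overlapping those of KRT6A in both groups. These paralogs cannot be fully separated by short reads. Of the 50-base windows of the KRT6A mRNA 39.2% occurred elsewhere, mostly in KRT6C and KRT6B, and the share was 46.6% for KRT6B. How reads that fit several genes were counted is not given in the sources used here, so the split between KRT6A and KRT6B is uncertain. Reads of the more abundant KRT5 may also have been counted on KRT6A and KRT6B, and their part in these counts was not tested.

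KRT17, the type I keratin usually induced alongside KRT6A, behaved differently from KRT5 and KRT6A in size. Its counts were 269, 230 and 204 in shCtrl and 278, 285 and 262 in shRBM39. The TMM-scaled values were 13.3, 10.8 and 10.0 CPM in shCtrl and 14.2, 16.6 and 13.5 CPM in shRBM39, so the lowest shRBM39 library stood just above the highest shCtrl library. The log2 fold change was 0.37 ± 0.09 (SE), or 1.29-fold. On the RPKM scale, which uses library totals alone, the groups overlapped, with 5.43, 4.48 and 4.14 RPKM against 5.36, 6.23 and 5.10 RPKM. The gene was no longer called when log2(RPKM + 0.1) was fitted with limma, where its difference was 0.25, or log2(RPKM + 1), where it was 0.21. The partner of KRT5, the type I keratin KRT14, had 6, 6 and 5 counts in shCtrl and 8, 1 and 1 in shRBM39, too few to test. KRT16, the type I keratin that pairs with KRT6A, had 29, 20 and 27 counts in shCtrl and 21, 22 and 15 in shRBM39, and was not called (log2 fold change -0.25 ± 0.26 (SE), edgeR adjusted p = 0.422). Thus the type II keratins KRT5, KRT6A and KRT6B were 6.50-fold to 17.7-fold higher in shRBM39. Of the type I genes of stratified epithelium, KRT16 and KRT17 had log2 fold changes of -0.25 and 0.37, and KRT14 could not be tested. KRT15, a type I keratin of basal cells, fell by 0.61 on the log2 scale.

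KRT8, the type II keratin of simple epithelium, was the most abundant keratin. It had 144237, 142060 and 140632 counts in shCtrl and 179382, 163881 and 179133 in shRBM39, or 0.721% of all counts of a shCtrl library and 0.891% of those of a shRBM39 library on average. Its level was 1073, 1021 and 1052 RPKM in shCtrl and 1276, 1320 and 1287 RPKM in shRBM39, with no overlap. The log2 fold change was 0.43 ± 0.04 (SE), or 1.34-fold, rank 2918. KRT18, its type I partner, moved less. It measured 985, 922 and 949 RPKM in shCtrl and 1024, 1060 and 1017 RPKM in shRBM39. The log2 fold change was 0.24 ± 0.04 (SE), or 1.18-fold. The groups of KRT18 did not overlap, but the gap between 985 and 1017 RPKM was about the size of the spread within shCtrl.

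KRT19, a type I keratin without a tail domain, was the one listed gene that was not called. Its level was 395, 370 and 390 RPKM in shCtrl and 367, 377 and 370 RPKM in shRBM39, and the groups overlapped. The log2 fold change was 0.07 ± 0.04 (SE) after TMM scaling and -0.05 with library totals alone, so its direction depended on the scaling. Without shCtrl replicate 1 the gene was called, at a log2 fold change of 0.10. KRT20, the keratin of differentiated intestinal cells, was almost undetected, with 11, 5 and 3 counts in shCtrl and 18, 25 and 19 in shRBM39. The values of KRT20 were 0.305, 0.134 and 0.0836 RPKM in shCtrl and 0.477, 0.751 and 0.509 RPKM in shRBM39. The groups did not overlap, and the log2 fold change was 1.82 ± 0.37 (SE), the widest error among the 10 genes. Without shCtrl replicate 1 it was 2.49.

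KRT7, the ductal type II keratin, had 1310, 1331 and 1212 counts in shCtrl and 1784, 1778 and 1968 in shRBM39. All 3 shRBM39 libraries (21.3, 24.1 and 23.8 RPKM) were above all 3 shCtrl libraries (16.4, 16.1 and 15.2 RPKM), and the log2 fold change was 0.66 ± 0.05 (SE), or 1.58-fold. The antisense gene RP3-416H24.1 overlaps KRT7 over 2401 bases and moved by nearly the same amount, with a log2 fold change of 0.65 and 664 to 1116 counts per library. The library kit keeps strand, but the strand setting of the counting is not given in the sources used here, so the reads of the pair may not be separable. The same holds for KRT8 and KRT18, whose annotated spans share 1084 bases on opposite strands. KRT86 shares 2887 bases of annotated span with KRT7 on the same strand, where strand cannot separate their reads. It had 155 to 189 counts per library and a log2 fold change of 0.12. KRT80 was the only listed gene called lower. It had 1710, 1826 and 1595 counts in shCtrl and 1248, 1041 and 1131 in shRBM39, or 20.1, 20.8 and 18.9 RPKM against 14.0, 13.3 and 12.8 RPKM, without overlap. Its log2 fold change was -0.45 ± 0.05 (SE).

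The order of the levels per length changed in the middle of the list and kept its top. In shCtrl the mean RPKM fell from KRT8 through KRT18, KRT19, KRT80, KRT7, KRT17 and KRT5 to KRT6B, KRT20 and KRT6A, whose values overlapped at the bottom. In shRBM39 KRT8, KRT18 and KRT19 again came first, followed by KRT7, KRT80, KRT5 and KRT17, then KRT6B and KRT6A with overlapping values, and KRT20. KRT5 passed KRT17, from 0.547 against 4.68 RPKM in shCtrl to 8.89 against 5.56 RPKM in shRBM39, and KRT7 passed KRT80. The RPKM divide by the length of all annotated exons of a gene merged, which for KRT8 is 6881 bases against 1784 for its canonical transcript. In a calculation with canonical lengths, added after seeing the data, KRT7 stood above KRT80 in shCtrl too and KRT5 stood above KRT80 in shRBM39 (17.1 and 15.0 RPKM).

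The basal type was a small part of the keratin mRNA in every library. Its summed level was 6.10, 5.10 and 4.88 RPKM in shCtrl and 15.3, 16.2 and 14.5 RPKM in shRBM39, a ratio of the means of 2.87. The summed simple type was 2453, 2313 and 2391 RPKM in shCtrl and 2668, 2757 and 2674 RPKM in shRBM39, a ratio of 1.13. Neither sum overlapped between the groups. The basal share of both types together was 0.224% ± 0.0224 in shCtrl and 0.565% ± 0.0222 in shRBM39 (SD, n = 3 each).

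**Figure D1:**
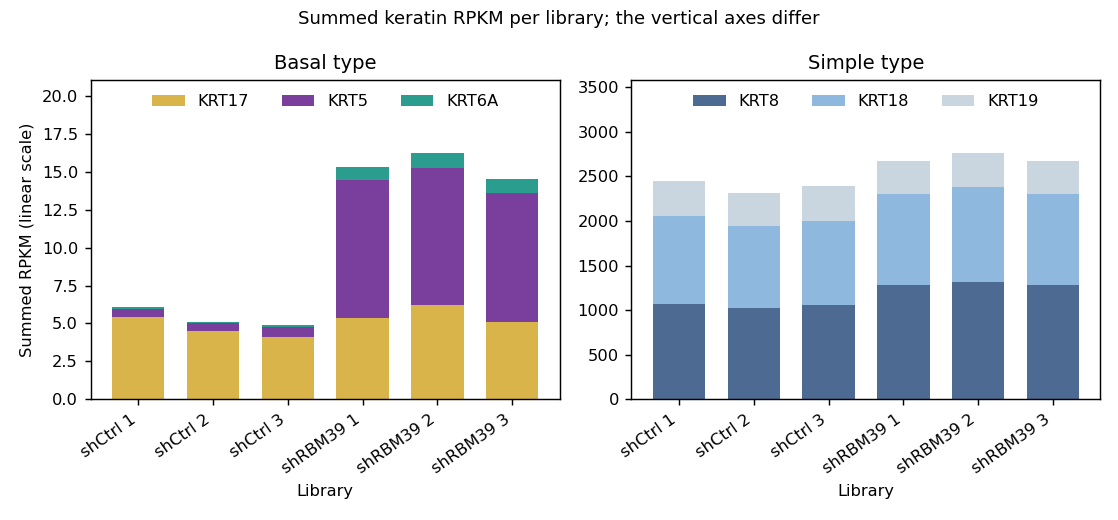
Summed RPKM of the basal type (KRT17, KRT5, KRT6A) and of the simple type (KRT8, KRT18, KRT19) in each library, as stacked bars on linear axes that start at 0 and differ in scale. KRT20, below 1 RPKM in all libraries, is left out of the bars. The basal bars grow mainly by the KRT5 segment, from 10.4% to 58.0% of the sum.

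The log2 ratio of basal to simple RPKM was -8.65, -8.83 and -8.94 in shCtrl and -7.45, -7.41 and -7.52 in shRBM39, a difference of 1.35 between the means. This difference rested on KRT5. The share of KRT5 in the basal sum went from 10.4% ± 1.94 to 58.0% ± 2.06, that of KRT17 from 87.3% ± 2.17 to 36.2% ± 1.92 and that of KRT6A from 2.37% ± 0.639 to 5.86% ± 0.464 (SD, n = 3 each). With KRT5 left out of the sum the difference was 0.25, and with KRT17 left out it was 3.68. On sums of CPM, which are not divided by length, it was 1.69. Hence the basal type did not move as one group, since KRT5 and KRT6A moved by a log2 fold change of 2.92 or more and KRT17 by 0.37.

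The simple type was not uniform either. Within each library the RPKM of KRT8 was divided by that of its partner KRT18, a ratio that no scaling of the library can change. The mean ratio was 1.10 ± 0.0104 in shCtrl and 1.25 ± 0.0112 in shRBM39 (SD, n = 3 each), with no overlap. The log2 ratio of KRT19 to KRT18 fell by 0.17, from -1.77 ± 0.02 to -1.94 ± 0.02. For KRT80 the same log2 ratio fell by 0.69, whereas for KRT7 it was higher by 0.42 and for KRT5 by 3.91. Summed over the listed genes, type II keratins amounted to 0.809 ± 0.00741 times the type I RPKM in shCtrl and 0.951 ± 0.00605 times in shRBM39. With canonical lengths these ratios were 1.46 and 1.70, so the higher ratio in shRBM39 did not depend on the length used, but the side of 1 on which it lay did. KRT8, KRT18 and KRT19 made up 95.6% and 95.7% of the RPKM of all 55 keratin genes in shCtrl and shRBM39, and all keratins together took 1.15% and 1.35% of the counts.

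Processed copies of KRT8 and KRT18 are scattered over the genome and share sequence with them. Of the 50-base windows of the KRT8 mRNA 39.2% occurred in another transcript, and of those of KRT18 35.3%, whereas at 100 bases the shares were 7.12% and 0%. Of 147 keratin pseudogenes 25 could be tested, of which 6 were called higher and 1 lower, beside 29.2% and 29.9% of all genes, and the median log2 fold change was 0.22 against -0.01 for all genes. With library totals alone 3 were called higher and 2 lower. The most abundant, KRT8P3, had 2535, 2527 and 2418 counts in shCtrl and 3366, 2871 and 3279 in shRBM39, and rose with a log2 fold change of 0.48 (edgeR adjusted p = 5.59e-13). KRT8P45 and KRT8P36 rose by similar amounts, with 0.46 (adjusted p = 2.17e-04) and 0.58 (adjusted p = 8.22e-05). KRT8P37 was called near the threshold (0.57, edgeR adjusted p = 0.0216), and KRT8P46 fell by 1.15 on the log2 scale (adjusted p = 9.44e-04). KRT8P37 was not called under DESeq2, with library totals alone, or without shCtrl replicate 2 or shRBM39 replicate 1 (0.44 and 0.53). KRT8P50, with 4, 11 and 2 counts in shCtrl and 8, 10 and 14 in shRBM39, had groups that overlapped, and 1 of its shCtrl and 2 of its shRBM39 libraries reached 0.503 CPM. It lost its call in 10 alternatives, among them the fit with no filter on low counts (1.04, edgeR adjusted p = 0.0559) and the fits without shCtrl replicate 1 or 3 or shRBM39 replicate 2 or 3 (0.65 to 1.02). Counts assigned to KRT8 pseudogenes stayed at 2.32 ± 0.0259 per 100 counts of KRT8 in shCtrl and 2.31 ± 0.0617 in shRBM39 (SD, n = 3 each). Reads of KRT8 placed on its copies cannot be told from transcripts of the copies in these counts.

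**Figure D2:**
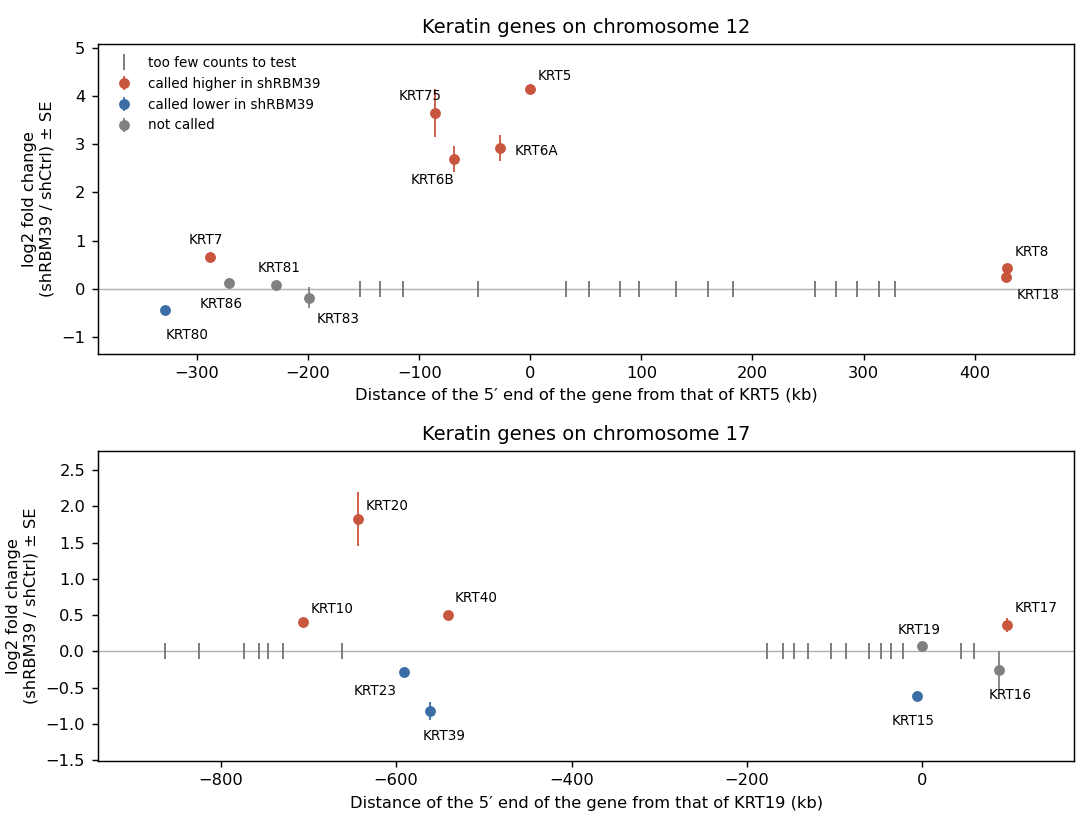
Log2 fold change (shRBM39 over shCtrl, with its SE) of the keratin genes against the distance in kilobases of the 5′ end of each gene from that of KRT5 (chromosome 12, top) and of KRT19 (chromosome 17, bottom). Red and blue points were called higher or lower, grey points were not called and ticks had too few counts to test. KRT75, KRT6B, KRT6A and KRT5 form a run of adjacent genes that all lie above 2.5, with the untested KRT6C among them.

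The keratins with the largest fold changes were neighbours. On GRCh38, KRT5 lies at chr12:52514575-52520687, KRT6A at chr12:52487174-52493257 and KRT6B at chr12:52446651-52452126, all on the minus strand. KRT75, a type II keratin of the hair follicle companion layer, follows KRT6B after a gap of 12.1 kb, and the stretch from KRT75 to KRT5 spans 96.6 kb. KRT75 was no listed gene and had 1, 2 and 1 counts in shCtrl and 17, 14 and 19 in shRBM39. The ratio of its summed, library-scaled counts was 13.7, with an exact 95% counting interval of 5.04 to 52.3. It entered the test only through shRBM39, as 0 of 3 shCtrl and 3 of 3 shRBM39 libraries reached 0.503 CPM, and it was also called higher in the edgeR fit with no filter on low counts (adjusted p = 1.21e-10). KRT6C, which lies between KRT6B and KRT6A, had 0, 0 and 1 counts in shCtrl and 0, 5 and 1 in shRBM39. Beyond KRT5 the next keratin is KRT71, 23.2 kb away, and like every untested keratin it had no more than 8 counts in any library.

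The other listed genes of chromosome 12 lie at the flanks. KRT80 (chr12:52168996-52192000, minus strand) and KRT7 (chr12:52232520-52252186, plus strand) are neighbours on one side and had log2 fold changes of -0.45 and 0.66. KRT8 (chr12:52897187-52949954, minus strand) and KRT18 (chr12:52948871-52952901, plus strand) lie at the far side of the cluster. The type I genes KRT20 (chr17:40875941-40885227), KRT19 (chr17:41523617-41528308) and KRT17 (chr17:41619437-41624842), all on the minus strand, are spread over chromosome 17. KRT15, the neighbour of KRT19 and a type I keratin of basal cells, had 385, 386 and 381 counts in shCtrl and 241, 217 and 227 in shRBM39 and fell by 0.61 on the log2 scale (edgeR adjusted p = 8.12e-09). The log2 fold changes of the 2 basal layer keratins KRT5 and KRT15 therefore had opposite signs.

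In the whole family 45 further keratin genes were in the table, 12 of them at 0 in all libraries. Of the 45, 10 could be tested, and 3 were called higher and 3 lower, near the 29.2% and 29.9% of all genes. Besides KRT75, these were KRT10, the type I keratin of the suprabasal epidermis (0.40, edgeR adjusted p = 3.45e-07), and KRT40, a hair keratin (0.50, adjusted p = 3.23e-11), on the higher side. KRT39, also a hair keratin (-0.82, edgeR adjusted p = 4.38e-07), and KRT23 (-0.28, adjusted p = 5.99e-05) were lower, as was KRT15. The 4 not called were KRT16 and the hair keratins KRT81, KRT83 and KRT86. Keratin-associated proteins, which link hair keratins, numbered 110, of which 5 could be tested. All 5 were called, 2 higher and 3 lower, beside 29.2% and 29.9% of all genes. The higher ones were KRTAP3-1 by 1.73 and KRTAP2-3 by 1.01 on the log2 scale, the latter not called in the limma fits. The lower ones were KRTAP5-1 by -1.57, KRTAP3-2 by -0.55 and KRTAP3-3 by -0.50. KRTAP3-1 and KRTAP5-1 each reached the minimum of 0.503 CPM only in the 3 libraries of the group where they were higher.

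Of the 63 tested genes that are not keratins but lie within 500 kb of a listed gene, 21 were called higher and 19 lower, shares near the 29.2% and 29.9% of all genes. Their median log2 fold change was -0.03, and with library totals alone 20 were called higher and 29 lower. The largest changes were those of CCR7, a chemokine receptor (1.13), and ACVRL1, a receptor of the TGF-beta family (1.10), upward, and of the integrin ITGB7 (-1.08) and of TTC25 (-1.08) downward. The most abundant neighbours were EIF4B, a translation initiation factor (-0.38, edgeR adjusted p = 3.50e-11), and RP11-793H13.8 (-0.07, adjusted p = 0.0947), which was called lower with library totals alone (-0.19, adjusted p = 8.42e-06).

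**Figure D3:**
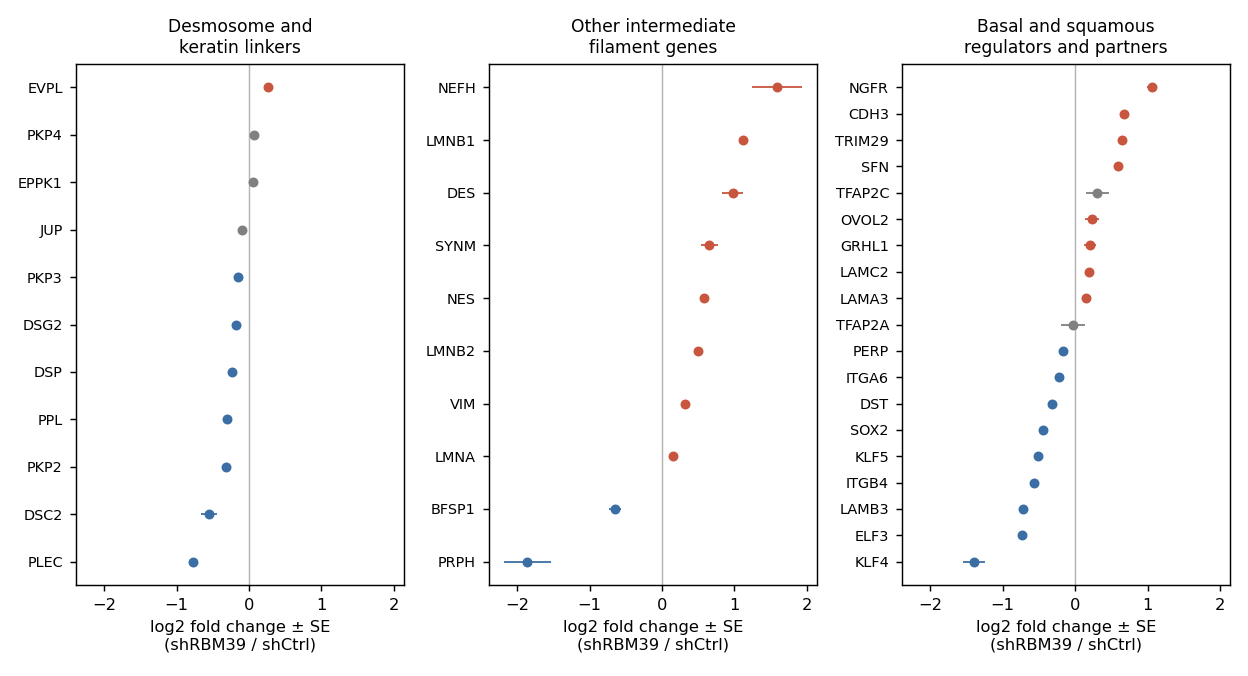
Log2 fold change (shRBM39 over shCtrl, with its SE) of the tested genes of the desmosome and keratin linkers, of the other intermediate filament genes and of the basal and squamous regulators and partners. Red was called higher, blue lower and grey was not called. Of the linkers 7 of 11 were called lower, and of the other intermediate filaments 8 of 10 were called higher.

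Keratin filaments are tied to desmosomes and hemidesmosomes by plakin proteins. In the list of desmosome and linker genes 7 of 11 tested were called lower and 1 higher, beside 29.9% and 29.2% of all genes, with a median log2 fold change of -0.17 against -0.01. PLEC, the plakin that links keratins to hemidesmosomes, fell by 0.78 on the log2 scale, from 1754 ± 67.3 to 1022 ± 44.5 CPM (SD, n = 3 each; edgeR adjusted p = 3.49e-18). The study lists PLEC among the skipped exon events of its shRBM39 RNA-seq, and the part of that exon in these counts was not tested. DSP, desmoplakin, fell by 0.23 (adjusted p = 1.75e-06), PPL, periplakin, by 0.31 (adjusted p = 9.27e-09), DSC2, a desmosomal cadherin, by 0.55 (adjusted p = 7.85e-05) and PKP2, plakophilin, by 0.32 (adjusted p = 2.47e-07) in edgeR on the log2 scale. EVPL, envoplakin, was the one linker called higher, with 0.26 (edgeR adjusted p = 5.63e-07). The linkers called lower numbered 6 under DESeq2 and 8 under the scalings by library totals and by the upper quartile.

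Of a list of 14 intermediate filament genes outside the keratin family, the 10 that were tested were all called, 8 higher and 2 lower. Across all genes 59.1% were called, 29.2% higher and 29.9% lower. Their median log2 fold change was 0.53 against -0.01. LMNB1, a nuclear lamin, rose from 160 ± 3.74 to 346 ± 8.64 CPM (SD, n = 3 each; edgeR adjusted p = 7.50e-23). LMNB2, the second B-type lamin, rose by 0.49 (edgeR adjusted p = 1.00e-12) and NES, nestin, by 0.58 (adjusted p = 6.35e-15) on the log2 scale. The muscle gene DES was higher at low counts (0.97, edgeR adjusted p = 8.67e-07), and the neurofilament NEFH had 13, 10 and 3 counts in shCtrl and 29, 26 and 17 in shRBM39 (log2 fold change 1.59). PRPH, peripherin, had 26, 26 and 25 counts in shCtrl and 7, 4 and 8 in shRBM39, a log2 fold change of -1.86. NEFH passed the minimum of 0.503 CPM in 1 shCtrl library and all 3 shRBM39 libraries and PRPH in the 3 shCtrl libraries alone, so each was tested through the group where it was higher. With no filter on low counts both were called too (edgeR adjusted p = 2.92e-06 and 3.35e-07). With library totals alone 7 were called higher.

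The list of regulators and partners of basal and squamous cells opens with TP63, the transcription factor of basal epithelial cells. It had 0 counts in all 6 libraries, where the limit that 0 counts allow (3 counts) was 0.141 to 0.174 CPM per library, counting error only. DSG3, a desmosomal cadherin of the basal layer, was also at 0, and COL17A1, a hemidesmosome collagen, had 8 to 13 counts. Of 19 tested genes, 8 were called higher and 9 lower, beside 29.2% and 29.9% of all genes, with a median log2 fold change of -0.03. NGFR, a receptor of basal cells, rose by 1.06 on the log2 scale (edgeR adjusted p = 1.79e-16). CDH3 (0.68, edgeR adjusted p = 5.05e-13), TRIM29 (0.64, adjusted p = 4.12e-12) and SFN (0.60, adjusted p = 1.24e-13) rose as well, without overlap between the groups. KLF4 (-1.40, edgeR adjusted p = 4.42e-10) and ELF3 (-0.74, adjusted p = 6.73e-14), transcription factors of differentiating epithelium, fell. The hemidesmosome and basement membrane genes LAMB3 (-0.72, edgeR adjusted p = 3.28e-16), ITGB4 (-0.57, adjusted p = 2.09e-14) and ITGA6 (-0.22, adjusted p = 9.49e-06) fell too. The number called higher was 4 with library totals alone and 5 under DESeq2, with 9 called lower in both. Of the cornified envelope list, the proteins of terminal squamous differentiation, 8 of 16 genes were at 0 in all libraries, and of 5 tested only CDSN was called, at 0.49 (edgeR adjusted p = 0.0311), while SBSN was not (-0.15, adjusted p = 0.456). CDSN was not called under DESeq2, with library totals alone, in the limma fits, or without shCtrl replicate 2 (0.34), shRBM39 replicate 2 (0.41) or shRBM39 replicate 3 (0.47). FLG, filaggrin, was not called (-0.53, edgeR adjusted p = 0.0708), but it was called lower with library totals alone (-0.65), without shCtrl replicate 2 (-0.68) and without shRBM39 replicate 2 (-0.72).

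The colon label was checked on markers of intestinal epithelium. VIL1, villin, and EPCAM, an epithelial adhesion protein, were abundant, at 693 ± 2.68 and 591 ± 25.3 CPM in shCtrl (SD, n = 3 each). Other markers of the list were low or nearly absent. LGALS4 had 3 to 8 counts per library, CEACAM5 0 to 6, CDX1 0 to 2 and GPA33 8 to 17. CDX2, the intestinal homeobox factor, fell from 21.7 ± 0.616 to 4.95 ± 0.529 CPM, a log2 fold change of -2.13 (edgeR adjusted p = 2.44e-20), beside the higher KRT20 in the same libraries. CDH17, an intestinal cadherin, fell by 1.34 on the log2 scale (edgeR adjusted p = 1.11e-06). VIL1 had a log2 fold change of -0.09 (edgeR adjusted p = 0.0298) and EPCAM of 0.02 (adjusted p = 0.749). The call of VIL1 was lost without a filter on low counts and without shCtrl replicate 1 or 3 or shRBM39 replicate 1 or 3 (-0.09 to -0.07), and EPCAM was called lower with library totals alone (-0.11, edgeR adjusted p = 0.0224). FABP1 (0.43, edgeR adjusted p = 9.12e-04) and MUC2 (0.66, adjusted p = 0.0113), an absorptive and a goblet cell gene, were called higher, but neither was in the limma fits. MUC2, whose groups overlapped, was also not called under DESeq2 or without shCtrl replicate 2 (0.42) or shRBM39 replicate 1 (0.50). In all, 5 of the 10 tested were called lower and 2 higher, beside 29.9% and 29.2% of all genes. In such bulk libraries fewer cells with a transcript and less transcript per cell cannot be told apart.

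Markers of other cell types were low in both groups. The fibroblast list summed to 11.4 to 12.5 CPM in shCtrl and 15.3 to 16.3 CPM in shRBM39, with COL1A1 called higher of 3 tested (0.81, edgeR adjusted p = 8.04e-08), LUM not called (-0.08, adjusted p = 0.633), and COL1A2, COL3A1 and DCN at no more than 3 counts. The endothelial list summed to 3.47 to 4.58 CPM and 6.45 to 7.96 CPM, with PECAM1 (0.79, edgeR adjusted p = 7.49e-06) and VWF (1.39, adjusted p = 7.64e-05, not called in the limma fits) called higher of 2 tested, KDR at 0 and CDH5 at no more than 1 count. The leukocyte list summed to 15.9 to 17.4 CPM and 16.4 to 17.8 CPM, nearly all of it CD68 (not called, 0.09, edgeR adjusted p = 0.311), with CD14 at 2 to 13 counts and PTPRC at 0. Across all genes 29.2% were called higher and 29.9% lower. The part of the cell type markers in the keratin values was not tested.

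The genes whose profile over the 6 libraries was nearest to that of KRT5 were ARHGDIB, LSP1, SFRP5, DIO3 and IGF2, at Euclidean distances of 1.83 to 2.51 between centred log2 CPM. In all, 12051 genes averaging 5 CPM or more were compared with it. Their log2 fold changes were 2.69, 2.57, 2.41, 2.39 and 2.09, each below that of KRT5 at 4.14. With 6 libraries in 2 groups, this likeness describes a shared difference between the groups and little else.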

How the data were processed

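RNA was measured in 6 SW480 libraries, 3 shCtrl and 3 shRBM39, made with a stranded mRNA kit. The authors deposited a table of counts per gene, with 56303 rows, of which 22618 were 0 in all libraries, and a table of RPKM for the remaining 33685. The submitters' processing notes name Trimmomatic 0.36, STAR 2.5.3a, featureCounts, Subread 1.5.1 and edgeR 3.12.1 and the build GRCh38, with no role or order. How reads matching several genes and strand were handled is not given in the sources used here. The study's methods name UID-mRNA-seq but do not say how duplicates were treated in the deposited counts. The deposited RPKM equalled counts divided by the library total and the length of merged exons, scaled as usual,, to a largest relative difference of 5.14e-15, and 96.0% of the 354 exons listed for the keratins matched a GENCODE exon exactly. The columns marked NC were read as shCtrl. The authors' tables of splicing comparisons hold their own tests and were not used.

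Counts as deposited were filtered with filterByExpr, scaled with TMM and tested in edgeR 4.0.16 (R 4.3.3, quasi-likelihood test, all 6 libraries, no covariate, Benjamini-Hochberg over 18243 genes, threshold 0.05). CPM are TMM-scaled and RPKM use library totals. The steps were tested on simulated data for shRBM39 against shCtrl, where 89.0% of the 2-fold changes among 200 changed genes were called, of 17984 genes tested. Every simulated gene had the same spread beyond counting noise, a coefficient of variation of 0.035. The share called therefore does not cover genes that vary more. Library totals of 18042924 to 20428901 counts limit genes with few counts most. Replicate libraries differed by more than counting noise (chi-square per degree of freedom 2.11 to 4.21), so none was counted as a duplicate. Alternatives were DESeq2 1.42.0, other scalings and filters, limma 3.58.1 on log2 RPKM with pseudocounts of 0.1 and 1, a replicate block and leaving out each library.

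The keratins and the gene lists were chosen with earlier results of these data known. The text names all listed keratins, RBM39, TP63, up to 4 called genes of largest change and 2 of highest level per list and per set of neighbours, and the 5 genes most like KRT5. KRT6C, KRT14, KRT16, KRT10, KRT86, DSG3, COL17A1, CDH3, TRIM29, SFN, FLG, RP3-416H24.1 and low markers are named besides, chosen after their values were seen.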

Additional observations from a re-analysis of the deposited data

How the results depend on the processing

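The number of genes called was 10790, and 8559 under DESeq2, 11146 with library totals alone and 10138 to 10263 with each library left out. Scaling by library totals alone moved the median log2 fold change of all genes from -0.01 to -0.14 and the share of calls that were higher from 49.4% to 33.9%, so small changes hang on the scaling. The log2 fold changes of KRT5 ranged from 2.68 to 4.21, of KRT8 from 0.30 to 0.46 and of KRT80 from -0.57 to -0.42 over all alternatives. At low counts the ranges were wider, 0.75 to 3.11 for KRT6A, 0.82 to 2.90 for KRT6B and 0.43 to 2.49 for KRT20, with each lowest value on log2(RPKM + 1), and KRT20 highest without shCtrl replicate 1. KRT19 turned to -0.0524, -0.0516 and -0.0514 with library totals, log2(RPKM + 0.1) and log2(RPKM + 1). EPCAM turned to -0.1065, -0.108 and -0.1076 in the same order, to -0.0159 with the upper quartile, and ranged from -0.0374 to 0.0642 with each library left out, below 0 without shCtrl replicate 2 (-0.0008) and without shRBM39 replicate 3. CD68 turned to -0.0372, -0.0376 and -0.0336. LUM ranged from -0.29 to 0.0362 with each library left out, above 0 without shCtrl replicate 3 (0.0061) and without shRBM39 replicate 1. The difference between basal and simple keratins, 1.35, was 1.63 and 1.01 as a mean over genes of log2(RPKM + 0.1) and log2(RPKM + 1), 1.69 on CPM sums, 3.68 without KRT17, 0.253 without KRT5 and 1.28 to 1.42 with each library left out. DESeq2 called 4 keratin pseudogenes in place of 7 and 0 cornified genes in place of 1. Both log2 RPKM fits called 0 cornified genes and 1 endothelial gene in place of 2. At least 10 counts in every library gave 2 cornified genes, and leaving out a library gave 0 to 2, with 2 without shCtrl replicate 1 and without shRBM39 replicate 1 and 0 without shRBM39 replicate 3. Libraries with the same replicate number did not deviate together (correlations 0.0066, -0.0264 and -0.0014), and a replicate block gave 10810 calls. Of the named genes, a call was lost in 39 cases and gained in 6. The causes were not tested. Keratins with under about 10 counts in a library, KRT6A, KRT6B and KRT20, are limited by depth.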
